A study of Homo sapiens with 15 samples.

Results

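The S100 genes followed here are 10 members of the S100 family of small calcium-binding proteins, taken by symbol: S100A2, S100A3, S100A4, S100A6, S100A10, S100A11, S100A13, S100A14, S100A16 and S100P. All 10 were listed in both deposited tables, of 60651 genes in a table of raw counts and 23792 genes in a table of fragments per 1000000 fragments (FPM). The study profiled RNA from 15 libraries labelled MDA-MB231, an established line of invasive human breast cancer cells without hormone receptors, in which KIF20A was raised or lowered. KIF20A is a mitotic kinesin needed for the final step of cell division. The overexpression dataset held 3 libraries labelled KIF20AOE, with the genotype given as overexpression of KIF20A, and 3 labelled EV, given as WT. The depletion dataset held 3 libraries each labelled SG1 and SG3, both given as a KIF20A knockdown, and 3 labelled CTRL, given as WT. All were grown in DMEM with serum. The labels do not say what SG1 and SG3 are, which construct carried KIF20A, whether a line was 1 clone, or whether replicates came from different cultures. P-values therefore measure the spread between libraries, which may be technical. Library totals were 16 to 22.2 M fragments for overexpression and 40.9 to 51 M counts for depletion.

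S100 proteins are vertebrate calcium sensors built from a pair of EF-hand motifs, loops that bind calcium. Most form dimers that open on binding calcium and grip target proteins such as annexins, non-muscle myosin heavy chains, the giant scaffold protein AHNAK or p53, and some are secreted and act on receptors such as AGER (RAGE). S100A10 is the exception that stays in the open form without calcium. In breast cancer cells S100A4 and the annexin partners S100A10 and S100A11 are known for their part in motility, invasion and membrane repair. By GENCODE 29 on GRCh38, 9 of the 10 genes lie on chromosome 1 and S100P on chromosome 4. S100A10 (151982915 to 151994390) and S100A11 (152032506 to 152047907) lie together, and S100A6, S100A4, S100A3, S100A2, S100A16, S100A14 and S100A13 lie in a second block from 153534599, the first base of S100A6, to 153631360, the last base of S100A13, all on the minus strand. The tables count each gene as a whole, exons and untranslated parts together.

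The upstream sequences of 4 members are shown because they contrast S100A6 and S100A4, which were almost lost in the libraries labelled KIF20AOE, with S100A10 and S100A11, which were reduced but kept. Each is the 250 bases before the gene's RefSeq start on the minus strand of GRCh38.p14, read 5′ to 3′. They span chr1:153535992-153536241 for S100A6, chr1:153545807-153546056 for S100A4, chr1:151993860-151994109 for S100A10 and chr1:152037005-152037254 for S100A11. Capitals mark the GC box letters GGGCGG or the TATA letters TATAAA.
S100A6: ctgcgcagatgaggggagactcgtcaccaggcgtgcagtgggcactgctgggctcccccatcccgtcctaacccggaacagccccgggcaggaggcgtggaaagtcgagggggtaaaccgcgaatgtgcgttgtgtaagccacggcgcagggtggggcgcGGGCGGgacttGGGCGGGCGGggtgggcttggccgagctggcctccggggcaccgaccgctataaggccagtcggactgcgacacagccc
S100A4: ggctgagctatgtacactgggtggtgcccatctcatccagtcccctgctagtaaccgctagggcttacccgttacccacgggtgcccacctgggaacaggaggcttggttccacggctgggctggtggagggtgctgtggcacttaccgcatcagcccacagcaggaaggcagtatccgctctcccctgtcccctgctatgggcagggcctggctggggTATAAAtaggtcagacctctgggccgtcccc
S100A10: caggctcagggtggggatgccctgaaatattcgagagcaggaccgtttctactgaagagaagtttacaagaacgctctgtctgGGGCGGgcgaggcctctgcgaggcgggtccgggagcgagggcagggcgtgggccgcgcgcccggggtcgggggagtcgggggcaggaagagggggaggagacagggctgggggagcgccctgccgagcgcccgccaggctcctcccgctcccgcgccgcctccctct
S100A11: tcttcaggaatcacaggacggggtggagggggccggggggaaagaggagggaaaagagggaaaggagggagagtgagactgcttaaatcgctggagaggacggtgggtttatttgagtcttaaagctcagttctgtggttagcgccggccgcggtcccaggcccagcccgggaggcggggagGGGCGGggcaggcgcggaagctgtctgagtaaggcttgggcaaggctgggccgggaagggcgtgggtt
The S100A6 window held 3 GC box matches, of which the last 2 overlap each other, and 24 CpG dinucleotides. The S100A4 window held no GC box, 7 CpG and a TATA match that begins at position -31, counted back from the start. S100A10 had 24 CpG and a GC box at -167, and S100A11 had 15 CpG and a GC box at -68. Both strands were searched, and the third motif, the AP-1 letters TGANTCA, was in none of these 4 windows. Over the 14 windows of the 10 members it was found in 2, one of S100A2 and one of S100A3, while TATAAA was found in 3 and GGGCGG in 6. Of 35116 RefSeq promoter windows of the same length, 6.57% held TGANTCA, 10.7% TATAAA and 42.6% GGGCGG, and the median was 11 CpG. S100A16, also almost lost in the libraries labelled KIF20AOE, had 6 CpG and a GC box at -45 in 1 window and 1 CpG in another. A link between these letters and the values below was not tested, and a match is a description of the letters, not of a site.

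KIF20A itself had 1348, 269 and 896 FPM in the libraries labelled KIF20AOE, against 101, 143 and 124 FPM in EV, and 123, 147 and 91.5 CPM (counts per 1000000 counts) in SG1 and 86.2, 60.7 and 79.1 CPM in SG3, against 154, 171 and 160 CPM in CTRL. The groups did not overlap in any of these 3 comparisons. Its rise in the libraries labelled KIF20AOE passed the threshold (log2 fold change 2.49 ± 0.53 SE, limma adjusted p = 0.00415). Its log2 fold changes of -0.42 in SG1 and -1.10 in SG3 did not (edgeR quasi-likelihood adjusted p = 0.913 and 0.33), although DESeq2 called it in SG3 (adjusted p = 0.000166). Of 15 alternative settings 15 left it uncalled in SG1 against CTRL, 13 in SG3 against CTRL and 14 in SG1 against SG3. Its sign turned in none of them. The cell line label was checked against 8 genes known to be high in MDA-MB-231 cells. All 8 were lower in the libraries labelled KIF20AOE than in EV without overlap, where 25.2% of all tested genes lay apart in that direction. Their summed level was 743 to 1284 FPM there, against 6469 to 7261 FPM in EV. VIM stayed at 347 to 776 FPM there, against 2520 to 2735 FPM in EV. KRT8 stayed at 234 to 329 FPM and KRT18 at 122 to 142 FPM, against 559 to 674 and 346 to 439 FPM in EV. The surface receptors CD44, at 0.125 to 1.23 FPM against 523 to 788 FPM in EV, and AXL, at 0.75 to 0.811 FPM against 811 to 1107 FPM in EV, were near 0. CD44 and AXL reached the filter for testing, a mean of 1 FPM, only through EV. The libraries labelled KIF20AOE therefore went against the cell line label, and what came with KIF20A and what came with these marker differences cannot be told apart in any value below. Of 8 luminal markers 7 were tested, with 2 called higher and 3 lower. Over all tested genes 46.2% were called higher and 23.4% lower. The sum of the 8 luminal markers was 78.7 to 88.5 FPM in the libraries labelled KIF20AOE, against 830 to 998 FPM in EV. KRT19, the luminal keratin, was at 0, 0.0902 and 0 FPM there, against 858, 744 and 880.2 FPM in EV, and made up most of the EV sum. Other luminal genes went the other way. FOXA1, a pioneer factor of luminal cells, was at 16.2, 17.1 and 19.1 FPM in the libraries labelled KIF20AOE, against 0.0952, 0.145 and 0.353 FPM in EV, and the adhesion protein CDH1 at 2.0, 4.10 and 4.44 FPM, against 0.19, 0 and 0.706 FPM in EV. The median log2 fold change of the 7 tested luminal markers was 0.38. KRT19, FOXA1 and CDH1 reached the filter only through the group where they are high and so had to differ, and these counts and the median are descriptions. Of 14 keratinocyte and basal markers 5 were listed, with a sum of 60.1 to 131 FPM in the libraries labelled KIF20AOE, against 35.1 to 59.1 FPM in EV. The higher sum came from DSC3, at 26.96 to 81.8 FPM there against 0 to 0.0967 FPM in EV, and from KRT17. DSC3 reached the filter only through the libraries labelled KIF20AOE. KRT17 was at 5.77 to 26.86 FPM there, against 0.532 to 8.47 FPM in EV, and its groups overlapped. Of the 5 markers 3 had negative log2 fold changes, and the median was -0.34. Sums for fibroblast markers (6 of 8 listed) were 80.5 to 103 FPM in the libraries labelled KIF20AOE, against 27.5 to 99.4 FPM in EV, for leukocyte markers (7 of 11 listed) 4.19 to 4.45 FPM there, against 6.14 to 10.2 FPM in EV, and for 6 endothelial markers 1.39 to 36.6 FPM there, against 18.3 to 31.7 FPM in EV. The 36.6 FPM were nearly all PECAM1, at 35.8 FPM in KIF20AOE replicate 2, and the other 2 libraries labelled KIF20AOE had endothelial sums of 1.39 and 1.88 FPM. The leukocyte marker PTPRC was listed at 0 in all 3 libraries labelled KIF20AOE. The part of these markers in the S100 values was not tested. In the depletion dataset the 8 cell line markers summed to 5862 to 7083 CPM in SG1 and 5714 to 6307 CPM in SG3, against 5979 to 6989 CPM in CTRL. In bulk RNA, fewer cells of a type and less RNA per cell also cannot be told apart.

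The S100 genes fell in the libraries labelled KIF20AOE. Of the 10 members 8 passed the filter of a mean of 1 FPM, and all 8 were called lower than in EV, with no overlap between the groups. Across all 15265 genes tested, 23.4% were called lower and 25.2% lay apart in that direction. Of all tested genes, 69.6% were called in either direction, and 46.2% were called higher. S100A3 passed the filter only through its EV level, so it had to differ, and the count and the median are descriptions. The median log2 fold change of the 8 was -3.78, against 0.37 over all genes tested, where values are on the log2(FPM + 1) scale, which understates the change of low genes. The median of all genes was 0.05 with TMM scaling (a trimmed mean of log ratios that centres the libraries), so part of each positive value is this shift. With TMM scaling the 8 members had a median of -3.99, and all 8 were still called lower. The summed level of the 10 members was 160 to 315 FPM in the libraries labelled KIF20AOE, against 2320 to 2718 FPM in EV.

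**Figure D1:**
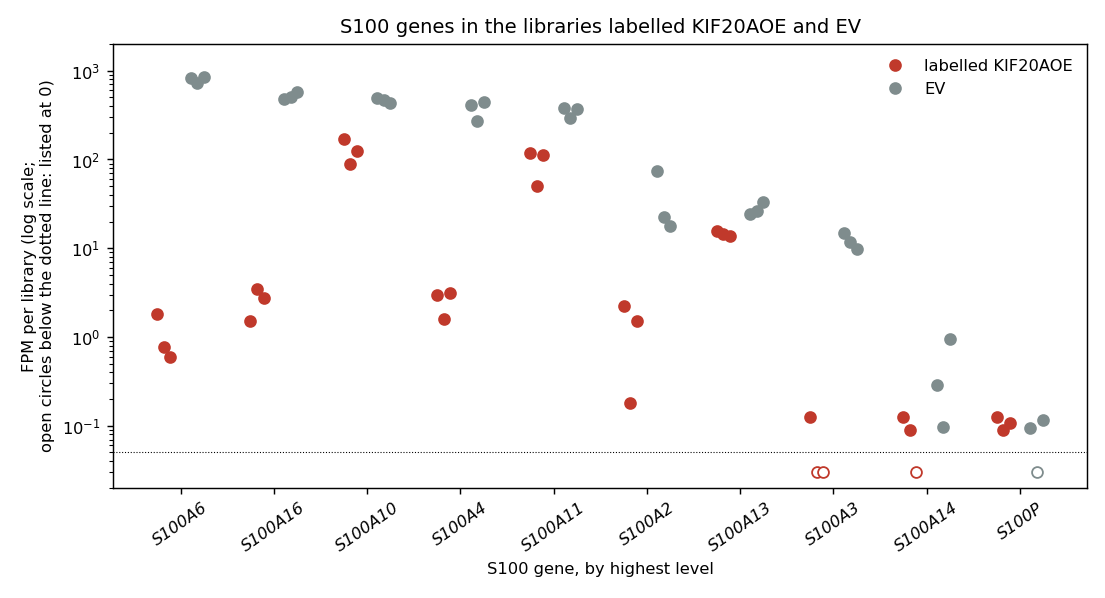
Level of each of the 10 S100 genes in FPM (log scale) in each of the 3 libraries labelled KIF20AOE (red) and the 3 EV libraries (grey), with values listed at 0 as open circles below the dotted line. S100A6, S100A16 and S100A4 lay at 0.589 to 3.47 FPM in the libraries labelled KIF20AOE, against 269 to 839 FPM in EV, while S100A10 and S100A11 stayed at 49.7 to 171 FPM.

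S100A6 (ENSG00000197956.10), also called calcyclin, which binds annexins and the ubiquitin ligase adaptor CACYBP, changed most among the members. It had 1.82, 0.766 and 0.589 FPM in the libraries labelled KIF20AOE, against 836, 724 and 839 FPM in EV. A gene that was the highest member in EV was thus down to 57 fragments over 3 libraries, against 46791 in EV, a ratio of pooled rates 795-fold lower (95% counting interval 613 to 1049). Its log2 fold change was -8.65 ± 0.22 (SE, limma adjusted p = 4.10e-08).

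S100A16 (ENSG00000188643.11), a widely expressed member in which a single EF-hand of each chain binds calcium well, followed S100A6. It had 1.5, 3.47 and 2.73 FPM in the libraries labelled KIF20AOE, against 485, 505 and 569 FPM in EV. The pooled rate was 193-fold lower (interval 165 to 228), and the log2 fold change was -7.23 ± 0.21 (limma adjusted p = 6.29e-08).

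S100A4 (ENSG00000196154.12), or metastasin, which binds the myosin heavy chain MYH9 and is a classic marker of motile and metastatic cells, had 3.01, 1.58 and 3.11 FPM in the libraries labelled KIF20AOE, against 411, 269 and 447 FPM in EV. These values were 141 fragments over the 3 libraries labelled KIF20AOE, against 21797 in EV. The pooled rate was 149.7-fold lower (interval 127 to 178), and the log2 fold change was -6.72 ± 0.25 (limma adjusted p = 1.45e-07). These 3 genes had log2 fold changes below -6, which 0.557% of all tested genes were called with.

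S100A10 and S100A11, the annexin partners, were reduced but not lost. S100A10 (ENSG00000197747.9), which forms a tetramer with annexin A2 and in that form binds plasminogen, had 171, 89.4 and 125 FPM in the libraries labelled KIF20AOE, against 491, 470 and 435 FPM in EV. S100A11 (ENSG00000163191.6), the partner of annexin A1 in membrane contact and repair, had 119, 49.7 and 113 FPM in the libraries labelled KIF20AOE, against 380, 293 and 367 FPM in EV. For both genes the library labelled KIF20AOE replicate 2 was the lowest, which was also the library with the lowest KIF20A of its group. S100A2 and S100A4 were lowest there too, while S100A16 was highest there and S100A6 and S100A13 lay in between. A link with the level of KIF20A was not tested. The log2 fold changes were -1.89 ± 0.21 for S100A10 and -1.97 ± 0.31 for S100A11 (limma adjusted p = 7.77e-05 and 0.000666), or 3.76-fold and 3.85-fold lower as pooled rates.

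Of the less abundant members, S100A2 (ENSG00000196754.13), a nuclear p53-binding member typical of basal epithelium, had 2.25, 0.18 and 1.5 FPM in the libraries labelled KIF20AOE, against 74.5, 22.5 and 17.9 FPM in EV. Its EV libraries were uneven, with replicate 1 well above the others, and leaving out that library gave a log2 fold change of -3.31 in place of -3.92 (limma adjusted p = 0.000503 with all libraries). S100A3 (ENSG00000188015.10), best known from the hair cuticle, had 0.125, 0 and 0 FPM in the libraries labelled KIF20AOE, against 14.7, 11.7 and 9.76 FPM in EV. That is 2 fragments in the libraries labelled KIF20AOE against 717 in EV, a ratio 347-fold lower with a counting interval of 95.7 to 2871. S100A13 (ENSG00000189171.14), which takes part in the release of FGF1 and interleukin 1 alpha, proteins without a signal peptide, changed least, with 15.7, 14.4 and 13.8 FPM in the libraries labelled KIF20AOE against 24.4, 26.5 and 33.0 FPM in EV. Its log2 fold change was -0.88 ± 0.17 (limma adjusted p = 0.00153). S100A13 shares 235 exonic bases with S100A1 on the other strand, and whether counting used strand is not stated, so reads of the 2 genes cannot be fully told apart.

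S100A14, an epithelial member that can act on AGER from outside the cell, and S100P, which activates ezrin, did not pass the filter and were not tested. S100A14 had 0.125, 0.0902 and 0 FPM in the libraries labelled KIF20AOE, against 0.286, 0.0967 and 0.941 FPM in EV. S100P stood at 0.125, 0.0902 and 0.107 FPM in the libraries labelled KIF20AOE, against 0.0952, 0 and 0.118 FPM in EV. These values correspond to 4 fragments in the libraries labelled KIF20AOE against 24 in EV for S100A14, and 6 against 4 in EV for S100P, over 3 libraries each, so little can be read from them at this depth, where 3 fragments equal 0.135 to 0.188 FPM.

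Other S100 genes were low throughout. S100A1, a calcium regulator of heart and skeletal muscle, had 2.44, 2.61 and 2.03 FPM there, against 0.19, 0.338 and 1.06 FPM in EV. S100A5, which lies between S100A6 and S100A4 and is known in mouse from olfactory neurons, had 0, 0 and 0.375 FPM in the libraries labelled KIF20AOE, against 2.76, 2.32 and 1.29 FPM in EV. The groups did not overlap for either gene, but each passed the filter only through the group where it is high and so had to differ, and no test is given for them. S100B, the glial member, was at 0.25 to 0.482 FPM in the libraries labelled KIF20AOE and 0 to 0.193 FPM in EV, and S100Z at 0.125 to 0.451 FPM in the libraries labelled KIF20AOE and 0.0952 to 0.967 FPM in EV, both under the filter. The neutrophil members S100A8, S100A9 and S100A12 and the psoriasin gene S100A7 were not among the 23792 genes of the FPM table, which listed no gene under 7 fragments in total.

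Partners and receptors of S100 proteins were read from a list of 34 genes, of which 29 were tested. In the libraries labelled KIF20AOE 17 (58.6%) were called lower and 7 higher, with a median log2 fold change of -0.95. Over all tested genes 23.4% were called lower and 46.2% higher. The counts include MYH14, TLR4 and FGF1, which passed the filter only through the group where they are high and so had to differ. With TMM scaling 20 partners were lower and 5 higher with a median of -1.30. ANXA1, an annexin bound by S100A11, had 13.7, 5.64 and 10.1 FPM in the libraries labelled KIF20AOE, against 705, 692 and 702 FPM in EV. It is also 1 of the 8 cell line markers. ANXA2, the partner of S100A10, had 279, 148 and 201 FPM in the libraries labelled KIF20AOE, against 1746, 2019 and 1769 FPM in EV. AHNAK, a scaffold bound by the complex of S100A10 and ANXA2, had 133, 115 and 100.01 FPM in the libraries labelled KIF20AOE, against 2230, 1964 and 1424 FPM in EV. No library overlapped for these 3 genes, and their log2 fold changes were -6.09, -3.18 and -3.99 (limma adjusted p = 2.69e-07, 3.54e-06 and 4.79e-07).

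MYH9, the heavy chain of non-muscle myosin IIA and the best known target of S100A4, had 647, 473 and 618 FPM in the libraries labelled KIF20AOE, against 2420, 1948 and 1767 FPM in EV (log2 fold change -1.82, limma adjusted p = 2.17e-05). Another non-muscle myosin chain, MYH14, moved the other way, with 51.5, 45.4 and 67.0 FPM in the libraries labelled KIF20AOE against 0.0952, 0.0483 and 0 FPM in EV, a ratio of 1061 with a counting interval of 363 to 5147, since EV held 3 fragments. TLR4, a receptor for secreted S100 proteins, was listed at 0 in all 3 libraries labelled KIF20AOE, against 34.9, 54.1 and 79.6 FPM in EV. FGF1, the growth factor that S100A13 helps to release, had 0.25, 0 and 0.107 FPM in the libraries labelled KIF20AOE, against 9.19, 9.71 and 8.88 FPM in EV. CACYBP, the S100A6 target, was slightly higher, at 198, 176 and 199.9 FPM in the libraries labelled KIF20AOE against 115, 143 and 127 FPM in EV (log2 fold change 0.57, limma adjusted p = 0.0032), a call that was lost with TMM scaling (0.22, adjusted p = 0.139) and in edgeR on recovered fragments (0.21, adjusted p = 0.177). AGER, the receptor RAGE, had 4.63, 5.50 and 4.12 FPM in the libraries labelled KIF20AOE, against 6.14, 4.88 and 8.70 FPM in EV, and the groups overlapped (-0.37, limma adjusted p = 0.182). It was called lower with TMM scaling (-0.67, adjusted p = 0.0287) and in edgeR on recovered fragments (-0.83, adjusted p = 0.0396).

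Genes of other EF-hand proteins, a list of 38 that includes calmodulins, calpains and myosin light chains, were all tested. In the libraries labelled KIF20AOE 20 (52.6%) were called lower and 6 higher, with a median log2 fold change of -0.47. Of all tested genes 23.4% were called lower and 46.2% higher. With TMM scaling 23 EF-hand genes were lower and 4 higher with a median of -0.82. The calls with the smallest adjusted p were MYL9, a smooth muscle type myosin light chain, at -6.0, the actin crosslinkers ACTN4 at -2.19 and ACTN1 at -2.23, the endoplasmic reticulum cargo factor MCFD2 at -1.76, the myosin light chain MYL12B at -2.18 and EFHD2 at -2.01 (limma adjusted p = 7.53e-07 for ACTN4 and 7.96e-06 or less for the others). The medians run in the order S100 members, partners, other EF-hand genes and all genes, from low to high, and the difference between these lists was not tested.

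**Figure D2:**
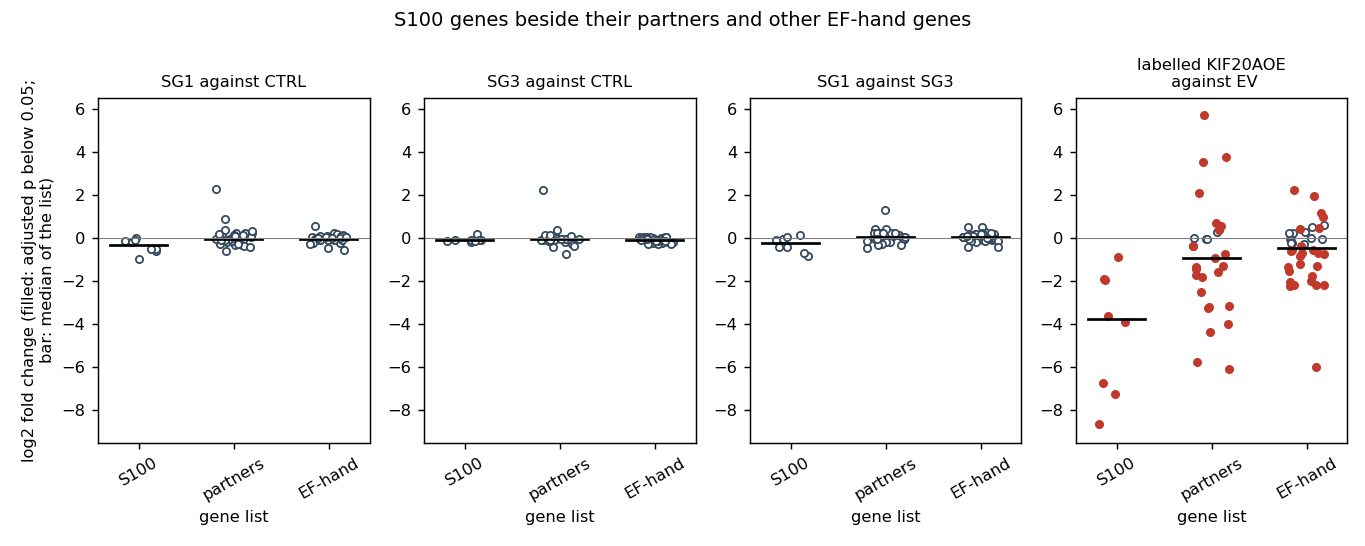
Log2 fold changes of the tested S100 members, their partners and receptors, and other EF-hand genes in the 4 comparisons, as points (filled where the adjusted p is below 0.05) with the median of each list as a bar. Filled points occur only in the comparison of the libraries labelled KIF20AOE with EV, where all 8 S100 members are filled and lie between -8.65 and -0.88.

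The tested chromosome 1 genes on the outer sides of the S100 blocks did not share the fall. Between the first and last S100 gene and 500 kb to either side lie 77 coding genes that are not S100 genes, of which 33 were listed and 23 tested in the overexpression dataset. Of these 17 were called higher in the libraries labelled KIF20AOE and 2 lower, the epidermal genes HRNR and FLG, with a median of 0.83. Among all tested genes 46.2% were called higher and 23.4% lower. HRNR and FLG were listed at 0 in the libraries labelled KIF20AOE and passed the filter only through EV. They were the only tested genes between the 2 S100 blocks, and the 17 called higher all lay on the outer sides. Of the 17, CELF3 averaged 2.19 FPM in the libraries labelled KIF20AOE against 0.0322 FPM in EV, and SLC39A1 1.37 against 0.678 FPM. These genes passed the filter only through the libraries labelled KIF20AOE, so the counts are descriptions in both directions. With TMM scaling 13 of the 23 were higher and 2 lower with a median of 0.48. The summed level of the listed neighbours was 1772 to 2070 FPM in the libraries labelled KIF20AOE, against 955 to 1024 FPM in EV. The 9 coding genes from S100A6 to S100A1 are all S100 genes. Within that run S100A6, S100A4, S100A2, S100A16 and S100A13 were called lower. S100A3, S100A5 and S100A1 passed the filter only through 1 group, so their bars are descriptions. CHTOP, the next coding gene after S100A1 and a chromatin-associated mRNA export factor, averaged 120.3 FPM in the libraries labelled KIF20AOE and 51.5 FPM in EV (log2 fold change 1.20, limma adjusted p = 3.7e-05).

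**Figure D3:**
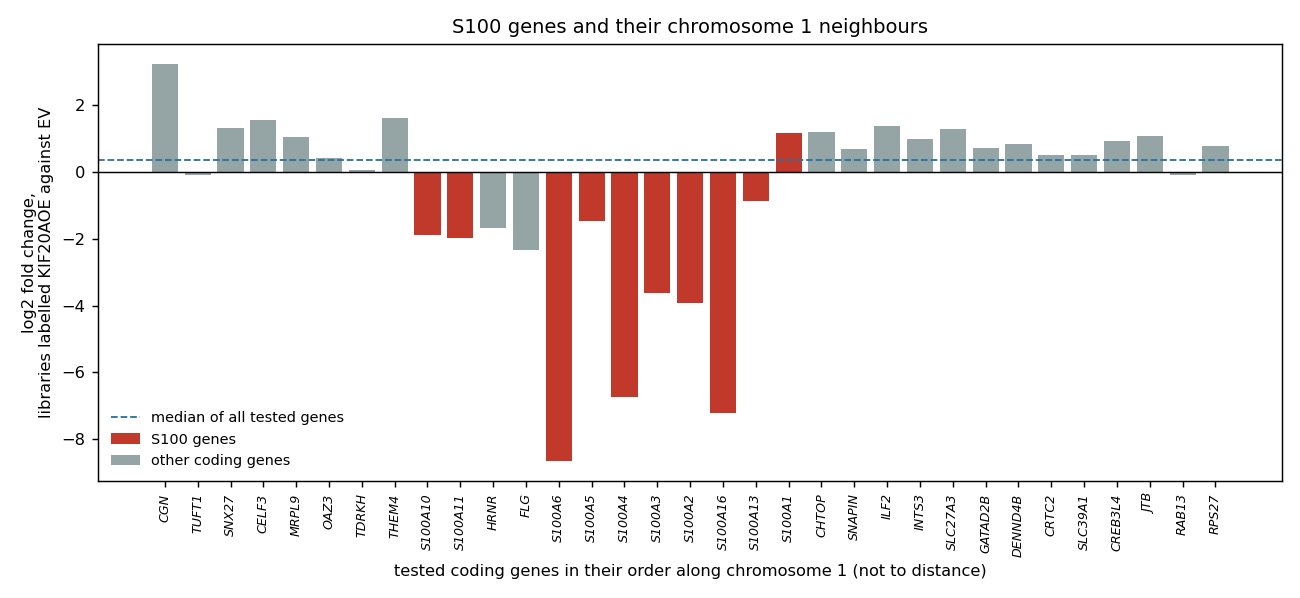
Log2 fold change of each tested coding gene of the chromosome 1 neighbourhood, libraries labelled KIF20AOE against EV, in the order of the genes along the chromosome (not to distance), with S100 genes in red, other genes in grey and the median of all tested genes (0.37) dashed. The negative bars are the S100 genes, HRNR and FLG and, close to 0, TUFT1 and RAB13, while S100A1 and most flanking genes are positive.

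Genes with the most similar profile were sought for each called member among 10569 genes averaging 10 FPM or more, as the mean absolute difference of centred log2(FPM + 1) values over the 6 libraries. S100A6 was closest to MMP14, a membrane-bound collagenase (0.17), APCDD1L (0.24) and the receptor kinase AXL (0.28). Near S100A4 lay SNX19 (0.20) and ESAM (0.21), and near S100A16 PHLDA1 (0.18), MYEOV (0.22) and SLC43A3 (0.25). S100A10 lay nearest to GBE1, the glycogen branching enzyme (0.052), NR1D1 (0.075) and TACC1 (0.082), and S100A11 nearest to TNFRSF12A (0.14), LOXL4 (0.16) and NQO1 (0.17). S100A2 was nearest to ADAMTS12, QSOX1 and ADM (0.26 to 0.32), S100A3 to TMEM92, FRMD5 and SVIL (0.11 to 0.13) and S100A13 to SH3RF1, DHRS1 and PTPN2 (0.045 to 0.051). With 2 groups of 3 libraries these distances mainly follow the size of the group difference.

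In the depletion dataset no S100 gene changed beyond the threshold. The same 8 members passed the filter on low counts, and edgeR called 0 of 16786 genes, members included, in SG1 or SG3 against CTRL or in SG1 against SG3 (percentage called 0). Unadjusted p-values under 0.05 numbered 770, 200 and 795 in these comparisons, and DESeq2 called 2, 4 and 4 genes. The comparisons of SG1 and SG3 with CTRL share the CTRL libraries. The summed level of the 10 members was 2078 to 2639 CPM in SG1 and 2256 to 3430 CPM in SG3, against 2603 to 3196 CPM in CTRL.

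S100A6 had 939, 959 and 831 CPM in SG1 and 902, 1801 and 1705 CPM in SG3, against 1414, 1451 and 1063 CPM in CTRL. The SG1 libraries all lay below CTRL, while SG3 held both the second lowest and the 2 highest of all 9 libraries. The log2 fold change was -0.53 ± 0.22 in SG1 and 0.17 ± 0.22 in SG3 against CTRL (edgeR adjusted p = 0.913 and 1.00), and -0.69 ± 0.22 for SG1 against SG3 (adjusted p = 0.861). S100A2 had 25.3, 24.0 and 19.9 CPM in SG1 and 21.2, 54.7 and 47.9 CPM in SG3, against 58.6, 53.0 and 25.3 CPM in CTRL. It had the largest log2 fold change of the members, -0.98 ± 0.32 in SG1 against CTRL (edgeR adjusted p = 0.913), and edgeR without a low-count filter called it (adjusted p = 5.04e-05), while DESeq2 did not (adjusted p = 1).

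The 5 libraries low in S100A6 and S100A2 were SG1 replicates 1, 2 and 3, SG3 replicate 1 and CTRL replicate 3, at no more than 1063 CPM of S100A6 and 25.3 CPM of S100A2. The other 4 had at least 1414 and 47.9 CPM. S100A3 and S100A13 divided the 9 libraries in the same way, by a smaller gap. S100A3 was at no more than 18.5 CPM in the 5 and at least 18.8 CPM in the other 4. S100A13 was at no more than 6.0 CPM in the 5 and at least 6.29 CPM in the other 4. The other tested members, S100A4, S100A10, S100A11 and S100A16, did not divide the libraries in this way. S100A4, for one, was at 477 CPM in SG1 replicate 2, above CTRL replicates 1 and 2 (442 and 440 CPM). S100A11 was lowest in CTRL replicate 1 (307 CPM). The same 5 libraries had positive scores on the first principal component of all other genes (16.5 to 32.1), and the other 4 negative scores (-33.3 to -21.3), with 23.4% of the variance and S100 genes left out of it. SG3 replicate 1 and CTRL replicate 3 were thus on the side of SG1 and away from their own groups. Without SG3 replicate 1 the log2 fold change of S100A6 in SG1 against SG3 was -0.98 (edgeR adjusted p = 0.0544), and without CTRL replicate 3 that of S100A2 in SG1 against CTRL was -1.29 (adjusted p = 0.423). Both libraries were singled out for low values of these genes. Leaving them out had to widen the differences, so these values are descriptions. Between the 2 sides no batch is named in the labels, and its part in these values was not tested. Mitochondrially encoded mRNAs, a sign of RNA quality, summed to 15335 to 33783 CPM in SG1 and 9609 to 19586 CPM in SG3, against 9945 to 25087 CPM in CTRL, and their part was not tested either.

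S100A4 had 404, 477 and 288 CPM in SG1 and 293, 481 and 436 CPM in SG3, against 442, 440 and 421 CPM in CTRL. The CTRL libraries were close together and lay inside the range of both other groups. S100A10 ran from 340.0 to 523 CPM in SG1 and 413 to 462 CPM in SG3, against 420 to 533 CPM in CTRL, S100A11 from 313 to 402 CPM in SG1 and 324 to 338 CPM in SG3, against 307 to 387 CPM in CTRL, and S100A16 from 231 to 277 CPM in SG1 and 225 to 268 CPM in SG3, against 265 to 297 CPM in CTRL. All these groups overlapped, and the log2 fold changes of these 4 genes lay between -0.18 and 0.01 in both comparisons with CTRL.

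S100A3 had 15.8, 18.2 and 10.7 CPM in SG1 and 18.5, 21.6 and 18.8 CPM in SG3, against 27.3, 25.1 and 14.9 CPM in CTRL. S100A13 had 5.31, 4.71 and 4.53 CPM in SG1 and 6.0, 7.24 and 6.29 CPM in SG3, against 6.55, 8.72 and 5.54 CPM in CTRL. In SG1 against CTRL the groups lay apart for 2 of the 8 tested members, S100A6 and S100A13, both lower, where 7.21% of all genes lay apart in that direction. The median log2 fold change of the 8 was -0.35 in SG1 and -0.11 in SG3 against CTRL, against 0.00 and -0.01 over all genes, with 7 of 8 negative in each. SG1 lay below SG3 without overlap for S100A3 and S100A13, where 4.55% of all genes did. In SG3 against CTRL no member lay apart, where 4.65% of all genes lay apart in either direction.

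**Figure D4:**
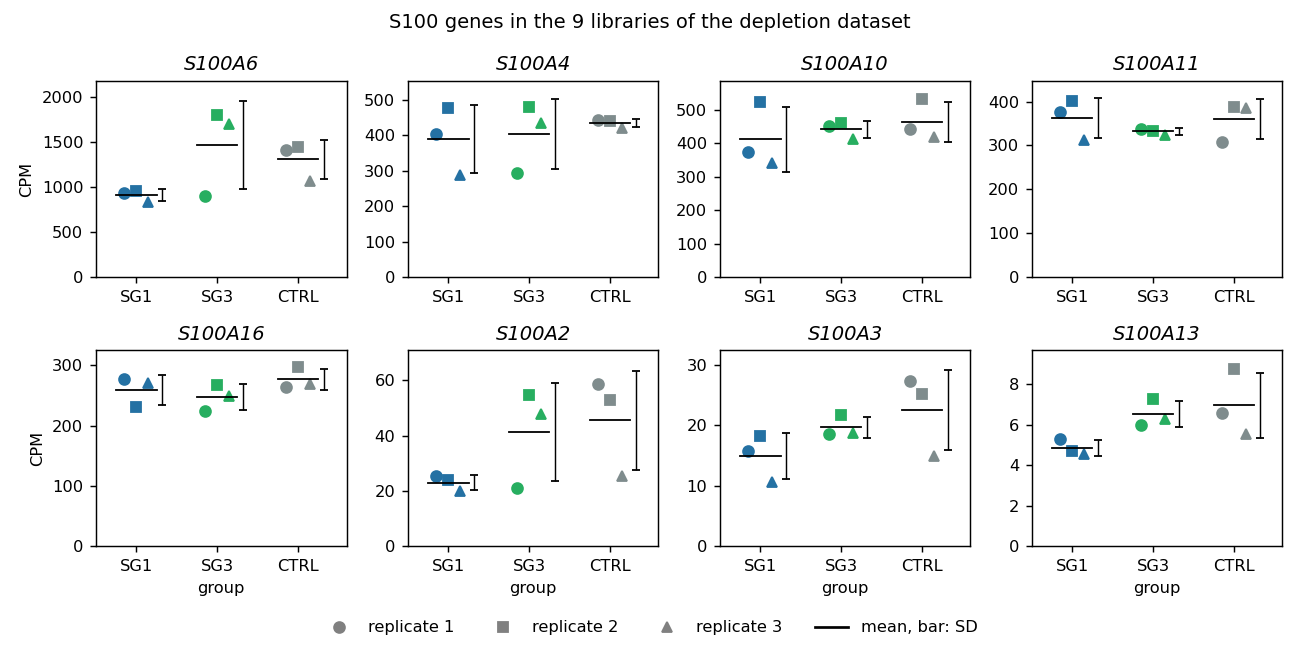
Level in CPM of the 8 tested S100 genes in SG1 (blue), SG3 (green) and CTRL (grey), 3 libraries each, with the symbol giving the replicate number, a line at the mean and a bar for the SD. S100A6 and S100A2 in SG3 replicate 1 (902 and 21.2 CPM) and CTRL replicate 3 (1063 and 25.3 CPM) lie at the level of SG1 and away from the other libraries of their groups.

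Members differed in how much they varied over the 9 depletion libraries. The highest library was 2.94 times the lowest for S100A2, 2.56 times for S100A3, 2.17 times for S100A6 and 1.93 times for S100A13. S100A4 and S100A10 followed at 1.67 and 1.57 times, and S100A16 and S100A11 were steadiest at 1.32 and 1.31 times. SG1 replicate 3 was the lowest library for S100A2, S100A3, S100A4, S100A6, S100A10 and S100A13. S100A14 stayed at 0 to 0.239 CPM, and S100P had 4 counts in a single SG3 library and none in the other 8, where 3 counts equal 0.0588 to 0.0734 CPM. Of the other S100 genes, S100A5 was at 2.16 to 3.85 CPM and S100A1 at 0 to 0.419 CPM, and S100A7, S100A8, S100A9, S100A12 and S100B had no count in any of the 9 libraries. Of 30 tested partner genes and 37 other EF-hand genes none was called in any of the 3 depletion comparisons, with list medians between -0.09 and 0.06.

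Levels of different genes were compared per kilobase of exon. In CTRL the order was S100A6 at 1349 ± 221 CPM per kb, S100A11 at 529 ± 67.4, S100A4 at 424 ± 11.2, S100A10 at 302 ± 38.6 and S100A16 at 163 ± 10.45, then S100A2 at 29.1 ± 11.4, S100A3 at 23.5 ± 6.91 and S100A13 at 3.13 ± 0.73 (SD, n = 3). S100A2 and S100A3 overlapped, and the other neighbours did not. SG1 and SG3 kept S100A6, S100A11, S100A4, S100A10 and S100A16 in that order, though S100A4 and S100A10 overlapped in both and S100A11 and S100A4 in SG1. In the libraries labelled KIF20AOE the order was another, with S100A11 at 138 ± 56.2 FPM per kb and S100A10 at 83.3 ± 26.5 first, then S100A13 at 6.60 ± 0.42, S100A4 at 2.50 ± 0.83, S100A16 at 1.51 ± 0.58, S100A6 at 1.09 ± 0.68, S100A2 at 0.837 ± 0.67 and S100A3 at 0.0437 ± 0.076. S100A11 overlapped S100A10, and each of S100A4, S100A16, S100A6 and S100A2 overlapped the one after it in that order. In EV it was S100A6 at 823 ± 67.6 FPM per kb, S100A11 at 510 ± 69.5, S100A4 at 366 ± 91.6, S100A16 at 305 ± 25.7 and S100A10 at 301 ± 18.5, then S100A2 at 24.4 ± 20.1, S100A13 at 12.6 ± 2.01 and S100A3 at 12.6 ± 2.61. There only S100A6 and S100A11, and S100A10 and S100A2, did not overlap their neighbour. Each table has its own normalization, so no test was made between them.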

How the data were processed

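RNA-seq libraries were grouped and numbered by their titles. Per the labels the overexpression table is FPKM, but every deposited column adds up to 1000000 and its values are multiples of 1 fragment's worth. The deposited values are therefore a CPM of fragments, scaled by the authors to the column total, and were used as FPM in place of the FPKM the design assumed, and 100% of values gave whole fragments within a tolerance of 0.001. The depletion table held raw counts as deposited by the authors. Build hg38, STAR 2.7.3a, Trim Galore 0.6.4, limma 3.50.3, Subread 1.6.3 and featureCounts are listed in the submitters' processing notes. Their roles, the strand setting and the treatment of shared reads were not given in the sources used here.

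For the counts, the quasi-likelihood test of edgeR 4.0.16 was fitted to all 9 libraries in R 4.3.3 (TMM scaling, default expression filter). For log2(FPM + 1) values, limma 3.58.1 was used (trend, robust, mean of at least 1 FPM). Both were run on simulated counts with independent libraries in each group, which checks the code and not the power at the spread seen here. DESeq2 1.42.0 and edgeR on recovered fragments were alternatives. Adjusted p-values are Benjamini-Hochberg values over all genes tested, with a threshold of 0.05. CPM use TMM library sizes. Ratios of pooled rates have exact 95% intervals (scipy 1.17.1). Reads carry no molecular identifiers and are not independent molecules, so intervals and floors cover only counting error. Replicates differed by more than sampling noise (chi-square divided by its degrees of freedom of 10.7 to 118). GENCODE 29 held 96.3% of the gene identifiers of the counts and 97.3% of those of the FPM values. All 10 members matched the RefSeq promoter table. Named genes were KIF20A, the members, other S100 genes, 6 partners by role, up to 6 called genes per list and comparison, the 3 nearest genes of each called member and, as counts, chromosome 1 neighbours. One of the nearest genes is not reported here. HRNR, FLG, CELF3, SLC39A1, CHTOP, TUFT1, RAB13 and the named markers were chosen after their values were seen. Members and lists were chosen with earlier results of these data known.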

Additional observations from a re-analysis of the deposited data

How the results depend on the processing

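In the libraries labelled KIF20AOE against EV, all 96 values of the 8 tested members under 12 alternatives (pseudocounts of 0.5 and 2, no filter, TMM scaling, edgeR on recovered fragments, replicate block, each library left out) kept their sign and stayed past the threshold, from -9.97 to -8.05 for S100A6 and from -1.30 to -0.76 for S100A13. The 12 values of S100A3 are descriptions, since it passed the filter only through EV and had to differ. Over all genes the split of 7048 higher and 3573 lower calls was 5290 and 4904 with TMM scaling and 5673 and 5216 in edgeR on recovered fragments. In the depletion dataset, with 0 calls as reported, DESeq2 called 2 genes in SG1 against CTRL, 4 in SG3 against CTRL and 4 in SG1 against SG3, and edgeR without a low-count filter called 91, 8 and 77, S100A2 among the first (adjusted p = 5.04e-05) and S100A2 and S100A6 among the last (0.00097 and 0.00514). The cause was not tested. Leaving out 1 library gave 0 to 1 calls in SG1 against CTRL (1 without SG1 replicate 2) and 0 to 5 in SG1 against SG3 (5 without SG3 replicate 1), and none in SG3 against CTRL. The sign of small changes turned when 1 library was left out: in SG1 against CTRL S100A4 ranged from -0.33 to 0.020 and S100A11 from -0.10 to 0.11, in SG3 against CTRL S100A2 from -0.44 to 0.19, S100A4 from -0.26 to 0.10, S100A6 from -0.0080 to 0.45, S100A10 from -0.15 to 0.072 and S100A13 from -0.24 to 0.14, and in SG1 against SG3 S100A4 from -0.27 to 0.13, S100A10 from -0.34 to 0.021 and S100A16 from -0.026 to 0.13. Replicate numbers are shared by name only (correlations of same-numbered libraries -0.12 to 0.18), and with a replicate block the calls numbered 0, 0, 0 and 10530 against 10621. Depth limits S100A14 and S100P, which had at most 24 reads in a group.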
